A study of Mus musculus with 8 samples.

Results

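The genes of fatty acid uptake and oxidation examined here were a list of 36 named genes, which were picked out of the deposited expression table by gene symbol. The table held 55487 Ensembl gene identifiers, and all 36 genes were found in it. Every member also passed the filter on low values (mean normalized count 10 or more), which 16513 genes of the table passed. The lowest value of any member in any library was 74 reads, for Ppara. The list was not chosen from the values of these mice, although earlier results of the same data were known when it was drawn up.

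The RNA came from 8 male C57BL/6J mice aged 10 weeks, all of a single group. Both hindlimbs of every mouse were held in casts for 8 days, and over the same 8 days every mouse was given K14Q MOTS-c intraperitoneally at 15 mg/kg/day, divided over 2 injections a day. MOTS-c is a small peptide encoded within the mitochondrial 12S rRNA gene, and K14Q is a variant of it in which a lysine is replaced by glutamine. The sample labels give the tissue as vastus lateralis, whereas the design text and the methods of the study name gastrocnemius. Immobilization and the peptide were shared by all 8 mice and no library of another condition was used here, so no value below can be assigned to the cast or to the peptide, and all comparisons are between genes or between mice.

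A muscle fibre takes up fatty acids that lipoprotein lipase frees from circulating triglyceride, or frees them from its own lipid droplets. Fatty acids are bound by carriers in the cytosol, activated to acyl-CoA, passed into mitochondria as carnitine esters, and shortened by repeated rounds of dehydrogenation, hydration, a further dehydrogenation and thiolysis. Malonyl-CoA blocks entry at the carnitine step, and pyruvate dehydrogenase kinases reduce the use of glucose carbon, so that both act as switches between fuels. The nuclear receptors of the PPAR family bind fatty acids and are known regulators of most of these genes in muscle, where slow and oxidative fibres carry more of the pathway than fast glycolytic fibres.

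The libraries held between 23985356 and 33012497 reads on genes, with a median of 29419182.5, and the 10 most abundant genes took 18.8% to 26.2% of them. Fast fibre genes (Myh4, Myh1, Tnni2, Tnnt3, Myl1, Mylpf, Atp2a1, Actn3 and Pvalb, 9 of 9 above the filter) summed to 1957022 to 3941577 normalized counts, with the lowest sums in mice 3 and 4. Slow fibre genes (Myh7, Tnni1, Tnnt1, Tnnc1, Myl2, Myl3, Tpm3, Atp2a2 and Mb, 9 of 9) summed to 36385 to 58368. Adipocyte genes were present throughout (8 of 8, 3640 to 6380, with none at 0 in any library). Most of each sum was Fabp4 (2662 to 4157). Its coefficient of variation was 14.6%, the lowest of the list, against a median of 45.8%, so the sums mainly follow that gene. Of 5 brown fat genes 3 passed the filter, namely Cidea (mean 17.8 normalized counts) and Ppargc1b and Cox7a1, which muscle also expresses, whereas Ucp1 and Elovl3 had 0 or 1 read in every library. Of 4 liver genes only Cyp2e1 passed (322 to 1378 normalized counts), Apoa1 had 0 reads in all 8 libraries, Ttr had at most 1 read and Alb at most 8. In whole muscle, a lower number of cells of a type and less RNA per cell cannot be told apart.

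Promoter sequences are shown for 4 members that carry the comparisons between mice: Pdk4, Acot2 and Etfa, the 2 members whose levels followed Pdk4 most closely, and Ucp3, an abundant member whose level did not follow it. They are RefSeq windows on GRCm38.p6, from 250 bases before to 50 bases after the annotated start, written 5′ to 3′ along the gene. Capitals in Pdk4 (chr6:5496229-5496528, minus strand), Acot2 (chr12:83987611-83987910, plus strand) and Etfa (chr9:55512194-55512493, minus strand) mark CCAAT or its reverse complement, the CCAAT box that the factor NF-Y binds, and capitals in Ucp3 (chr7:100472741-100473040, plus strand) mark AGGTCA, the core hexamer that nuclear receptors including the PPARs recognise.
Pdk4: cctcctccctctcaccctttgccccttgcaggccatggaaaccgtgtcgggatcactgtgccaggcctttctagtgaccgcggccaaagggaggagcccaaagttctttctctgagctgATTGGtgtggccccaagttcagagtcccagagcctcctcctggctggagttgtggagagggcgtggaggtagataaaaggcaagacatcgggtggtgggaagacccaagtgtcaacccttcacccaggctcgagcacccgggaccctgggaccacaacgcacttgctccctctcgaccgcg
Acot2: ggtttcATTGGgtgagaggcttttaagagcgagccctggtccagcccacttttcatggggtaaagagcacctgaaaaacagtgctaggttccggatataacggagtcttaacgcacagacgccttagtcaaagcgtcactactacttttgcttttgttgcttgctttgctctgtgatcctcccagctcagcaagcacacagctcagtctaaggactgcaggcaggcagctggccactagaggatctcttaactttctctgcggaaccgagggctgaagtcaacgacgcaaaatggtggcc
Etfa: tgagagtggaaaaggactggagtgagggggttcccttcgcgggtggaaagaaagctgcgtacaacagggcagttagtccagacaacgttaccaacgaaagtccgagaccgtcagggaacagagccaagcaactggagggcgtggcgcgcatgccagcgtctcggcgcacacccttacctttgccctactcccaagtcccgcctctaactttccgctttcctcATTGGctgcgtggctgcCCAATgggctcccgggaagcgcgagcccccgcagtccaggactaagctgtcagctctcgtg
Ucp3: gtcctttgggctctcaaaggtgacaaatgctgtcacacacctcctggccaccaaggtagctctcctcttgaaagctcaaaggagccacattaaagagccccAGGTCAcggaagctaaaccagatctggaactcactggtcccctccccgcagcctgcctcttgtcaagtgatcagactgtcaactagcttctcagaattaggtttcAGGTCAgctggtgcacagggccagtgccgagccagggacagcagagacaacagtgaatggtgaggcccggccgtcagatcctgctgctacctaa

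Counted from the start as annotated by RefSeq, the match began at base -131 in Pdk4, at -244 in Acot2, at -28 and -11 in Etfa, and at -149 and -44 in Ucp3. Of the 36 members, 30 had 1 or more windows (34 windows in all), while Lpl, Cpt1b, Acaa2, Acat1, Decr1 and Acot13 had none. Searched on both strands, CCAAT occurred in 15 of the 34 windows (44.1%), against 37.4% of all 32851 windows, and AGGTCA occurred in 7 (20.6%, in Cd36, Cpt1a, Acacb, Acadm, Acadvl, Echs1 and Ucp3), against 16.3%. The DR1 element that PPARs bind with RXR, searched as AGGTCA, any base and AGGTCA again, occurred in 0 of the 34 windows, against 0.0396% of all windows. The FOXO-type motif TGTTTAC occurred in 1 window (2.94%, Lipe), against 3.65%. These shares are near those of all promoters, and a match of letters is a description of the window and not a binding site.

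The members spanned a wide range of levels, which were compared between genes as normalized counts per kb of exon. Pdk4 stood highest, at 23216 ± 3271 (SD, n = 8), the 55th most abundant of the 16513 genes on this scale. It was followed by Fabp3 at 4003 ± 506, Acadl at 3897 ± 457, Pnpla2 at 3454 ± 773 and Ucp3 at 3030 ± 451. The lowest were Cpt1a at 60.3 ± 10.4, Ppara at 62.4 ± 28.7, Ucp2 at 80.0 ± 12.7, Ppard at 94.6 ± 8.75 and Lipe at 97.1 ± 13.3. The median over the 36 members was 684 normalized counts per kb. With the length of the longest transcript, 22 of the 36 levels moved by more than their SD, and Ppara (70.2) was lowest, below Cpt1a (107), Ucp2 (140), Lipe (154) and Ppard (191), while Pdk4 remained highest (23396).

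**Figure D1:**
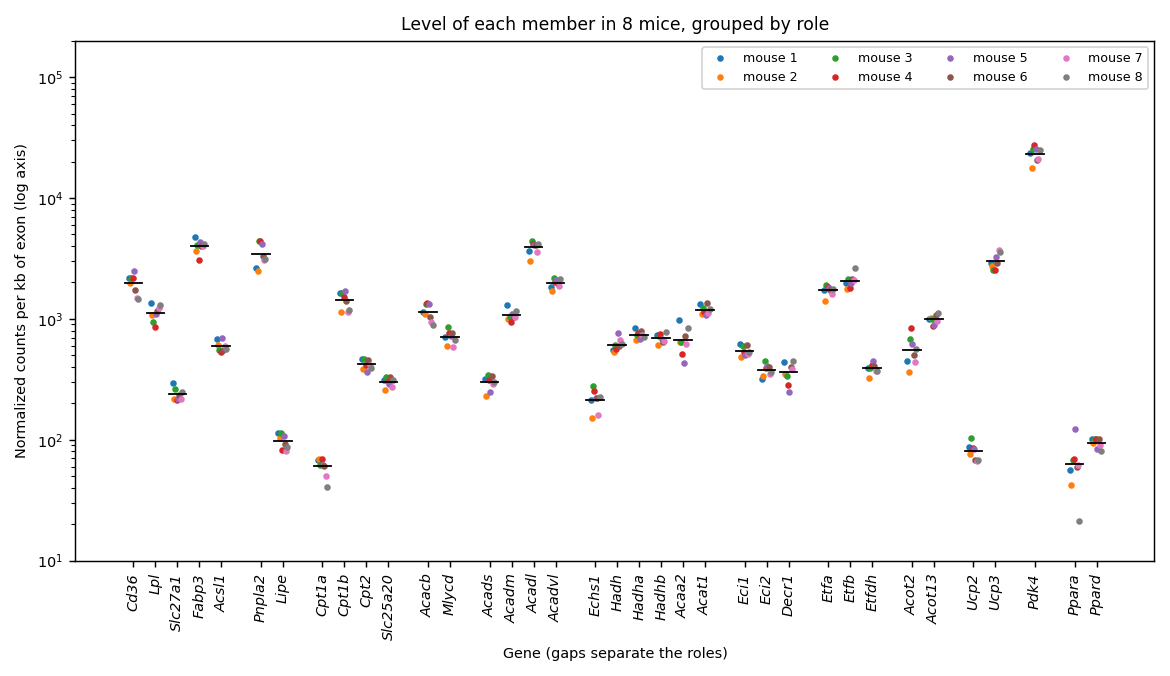
Normalized counts per kb of exon (log axis) for the 36 members in role order, with a point for each of the 8 mice and a bar at the mean. Pdk4 lies alone at the top at 23216, and Cpt1a, Ppara, Ucp2, Ppard and Lipe have means under 100 (60.3 to 97.1).

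Among the genes of fatty acid entry, the transporter Cd36 had a lowest count of 5213, a median of 7406 and a highest count of 8998 normalized counts. Mice 7 and 8 were lowest and mouse 5 highest. Slc27a1, the fatty acid transport protein FATP1, ran from 1236 over a median of 1314 to 1723, with mouse 1 highest. Per kb, Cd36 exceeded Slc27a1 in 8 of 8 mice, with a log2 ratio of 3.03 ± 0.32 (SD), or 8.17-fold.

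Lpl, the lipase that releases fatty acids at the capillary wall, had 8936 normalized counts at its lowest, 11861 as its median and 14069 at its highest. The lowest mice for Lpl were 4 and 3 and the highest were 1 and 8, so the order of the mice was unlike that of Cd36. Fabp3, the cytosolic fatty acid binding protein of heart and muscle, was between 2516 and 3924 with a median of 3320, and Acsl1, which activates long-chain fatty acids to acyl-CoA, was between 5591 and 7283 with a median of 6048. Of the bases in Fabp3 exons, 9.84% overlap Zcchc17 on the opposite strand, which averaged 735 normalized counts. Whether the reads were counted by strand is not given in the sources used here.

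The stored triglyceride lipases were far apart in level. Pnpla2, the adipose triglyceride lipase ATGL that starts lipolysis, had 7949, 7555, 13351, 13366, 12456, 10089, 9238 and 9450 normalized counts in mice 1 to 8. Mice 3, 4 and 5 lay above the other five, and mice 1 and 2 were lowest. Lipe, hormone-sensitive lipase, which acts next on diacylglycerol, ran from 476 over a median of 572 to 665. Pnpla2 exceeded Lipe per kb in 8 of 8 mice, with a log2 ratio of 5.13 ± 0.39, or 35.0-fold.

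In the carnitine shuttle, the muscle form of carnitine palmitoyltransferase I was dominant. Cpt1b (ENSMUSG00000078937, chr15:89416405-89425863) had 5525, 3823, 5499, 5114, 5776, 4716, 3871 and 3979 normalized counts in mice 1 to 8, and Cpt1a (ENSMUSG00000024900, chr19:3322334-3385733), the form known from liver, had 519, 534, 476, 532, 472, 463, 381 and 308. Mice 2, 7 and 8 were lowest for Cpt1b, and mice 7 and 8 were lowest for Cpt1a. The log2 ratio per kb was 4.56 ± 0.26, or 23.6-fold, and Cpt1b was higher in 8 of 8 mice. Of the exon bases of Cpt1b, 81.4% are shared with Gm44502, an annotated gene on the same strand that averaged 5209 normalized counts, so the level of Cpt1b depends on how reads common to both were assigned. Cpt2, the inner membrane transferase, ran from 876 to 1117 with a median of 994. Slc25a20, the carnitine-acylcarnitine translocase, ran from 1244 to 1614 with a median of 1494.

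The enzymes that set malonyl-CoA were both well expressed. Acacb, the acetyl-CoA carboxylase that makes it at the mitochondrial surface, had a lowest count of 8575, a median of 10781 and a highest count of 13077. Mlycd, malonyl-CoA decarboxylase, which removes it, had 1726, 2123 and 2520. Mice 3, 4 and 5 were above the mean for both, and mice 2, 7 and 8 were below it for both.

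The acyl-CoA dehydrogenases, which carry out the opening oxidation of each round, differed by chain length class. Acadl (long chain) had 7259, 6014, 8817, 8377, 8253, 8222, 7212 and 8350 normalized counts in mice 1 to 8, and mouse 2 was the lowest. Acadvl (very long chain) ran from 4558 over a median of 5310 to 5804, Acadm (medium chain) from 3669 over 4073 to 5047, and Acads (short chain) from 526 over 698 to 785. Per kb, Acadl exceeded Acadvl with a log2 ratio of 0.98 ± 0.079 and exceeded Acadm with 1.86 ± 0.23, and Acadm exceeded Acads with 1.85 ± 0.23, each in 8 of 8 mice. The ratio of Acadl to Acadvl was the steadiest of the 12 ratios examined, between 0.82 and 1.08 on the log2 scale. Exons of Acadvl share 42.9% of their bases with Dvl2 on the opposite strand, which averaged 133 normalized counts, or 2.52% of Acadvl.

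The later steps of each round were carried by Hadha and Hadhb, the subunits of the mitochondrial trifunctional protein, and by single-function enzymes. Hadha had 7311, 5819, 6467, 6689, 5892, 6980, 6440 and 6175 normalized counts in mice 1 to 8, and Hadhb had 4893, 3987, 4740, 4913, 4492, 4274, 4315 and 5086. Mouse 2 was lowest for both. Per kb the subunits were close, with a log2 ratio of Hadha to Hadhb of 0.092 ± 0.13, and Hadha was higher in 6 of 8 mice (exact permutation test, two-sided, p = 0.078, adjusted p = 0.078). With the length of the longest transcript in place of all exon bases, the ratio was 0.62, with an adjusted exact permutation p of 0.00852.

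Echs1, the short-chain enoyl-CoA hydratase, ran from 1262 in mouse 2 over a median of 1835 to 2290 in mouse 3. Hadh, the dehydrogenase for medium and short chains, ran from 2633 over 3007 to 3801. The thiolases Acaa2 and Acat1, of which the latter also acts in ketone body use, had medians of 974 and 4424. Acaa2 had 1479, 968, 980, 772, 650, 1094, 935 and 1279 normalized counts in mice 1 to 8. Mouse 1 was highest, and mice 5 and 4 were lowest.

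Unsaturated fatty acids need auxiliary enzymes, which were expressed at moderate levels. The enoyl-CoA isomerases Eci1 and Eci2 ran from 1030 over a median of 1127 to 1307 and from 1772 over 2090 to 2469. Per kb, Eci1 exceeded Eci2 in 8 of 8 mice, with a log2 ratio of 0.54 ± 0.19, or 1.45-fold, and mouse 1 had the highest ratio at 0.94. Decr1, the dienoyl-CoA reductase, had 1690, 1366, 1314, 1103, 960, 1545, 1499 and 1731 normalized counts in mice 1 to 8. Mice 5 and 4 were lowest for Decr1, as they were for Acaa2.

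Electrons from the dehydrogenases pass through the electron transfer flavoprotein, made of Etfa and Etfb, to its membrane oxidoreductase Etfdh. Etfa (ENSMUSG00000032314, chr9:55454508-55512243) had 3174, 2562, 3466, 3396, 3332, 3169, 2930 and 3269 normalized counts in mice 1 to 8, and mouse 2 was lowest. Etfb had 2295, 2050, 2488, 2091, 2286, 2466, 2446 and 3091, and mouse 8 stood above the other mice. Per kb, Etfb exceeded Etfa in 7 of 8 mice, with a log2 ratio of Etfa to Etfb of -0.26 ± 0.19 (exact permutation test, two-sided, p = 0.0156, adjusted p = 0.0170). Gm45233 on the same strand shares 53.0% of the exon bases of Etfb and averaged 1937 normalized counts, which limits the level of Etfb in the same way as that of Cpt1b. Etfdh ran from 2431 over a median of 2948 to 3362.

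Thioesterases release free fatty acid from acyl-CoA. Acot2 (ENSMUSG00000021226, chr12:83987861-83993873), the mitochondrial long-chain enzyme, had 985, 791, 1500, 1833, 1366, 1108, 965 and 1245 normalized counts in mice 1 to 8. Mice 4, 3 and 5 were highest and mouse 2 lowest, a 2.32-fold range. Acot13 ran from 648 over 736 to 832. Acot13 exceeded Acot2 per kb in 8 of 8 mice, but by an uneven margin, from 0.062 in mouse 4 to 1.49 in mouse 2 on the log2 scale. The counts of Acot2 are uncertain, because Acot1 is a near-identical neighbour that averaged 293 ± 75.7 normalized counts. Acot1 was also lowest in mouse 2, at 193, and highest in mouse 4, at 422.

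The uncoupling protein homologue Ucp3 (ENSMUSG00000032942, chr7:100472990-100486432), which is typical of skeletal muscle and rises with fatty acid supply, had 9093, 8652, 7963, 8013, 10238, 9101, 11667 and 11265 normalized counts in mice 1 to 8. Its homologue Ucp2, a gene of many tissues and immune cells, had 613, 536, 724, 597, 589, 479, 465 and 473. Mice 7 and 8 were highest for Ucp3 and among the 3 lowest for Ucp2, and mouse 3 was lowest for Ucp3 and highest for Ucp2. Per kb, Ucp3 exceeded Ucp2 in 8 of 8 mice with a log2 ratio of 5.24 ± 0.40, or 37.8-fold.

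Pdk4 (ENSMUSG00000019577, chr6:5483351-5496309), the pyruvate dehydrogenase kinase that rises in fasting and with glucocorticoids, had 82171, 62168, 89255, 96382, 89275, 71765, 73112 and 87974 normalized counts in mice 1 to 8. Mouse 2 was lowest and mouse 4 highest, a 1.55-fold range, and Pdk4 alone took 0.279% of all reads on genes. Its coefficient of variation (CV, the SD as a percent of the mean) was 14.1%, close to the median of the members.

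The nuclear receptors were at low levels. Ppara, the receptor best known from liver and oxidative muscle, had 214, 162, 263, 265, 467, 228, 236 and 81 normalized counts in mice 1 to 8, so that mouse 5 was the highest and mouse 8 the lowest, 5.76-fold apart. Ppard, the abundant PPAR of skeletal muscle, ran from 604 over a median of 737 to 769. Per kb, Ppard exceeded Ppara in 7 of 8 mice, mouse 5 being the exception, with a log2 ratio of Ppara to Ppard of -0.73 ± 0.69 (exact permutation test, two-sided, p = 0.0156, adjusted p = 0.0170). With the longest transcript as length, Ppard was higher in 8 of 8 mice, with a log2 ratio of -1.57.

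Each of these ratios was tested within mice by an exact sign-flip permutation test, two-sided, over 12 pairs of genes. For the 9 pairs with the same gene higher in 8 of 8 mice, p was 0.0078125, the smallest the 8 mice can give, with an adjusted p of 0.0104. With the pairs Etfa and Etfb and Ppara and Ppard, 11 of the 12 passed. When the longest transcript was used for length, the same gene was higher on average in all 12 pairs, but the sizes changed. Cd36 was then 4.74-fold above Slc27a1, Cpt1b 15.5-fold above Cpt1a, Acadl 1.98-fold above Acadm and Acadm 6.16-fold above Acads.

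**Figure D2:**
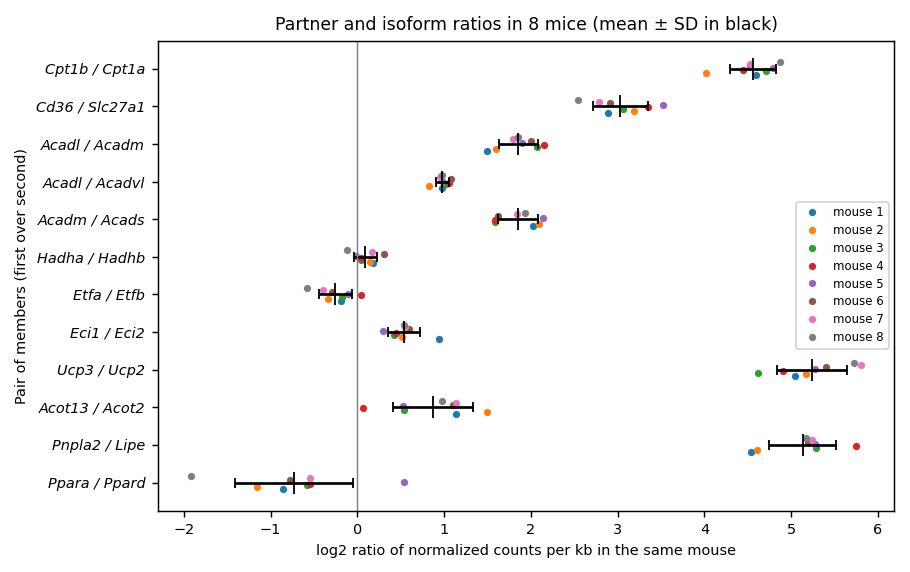
log2 ratio of normalized counts per kb of the gene written first to the gene written second, in the same mouse, with a point for each of the 8 mice and black bars for the mean ± SD. Cpt1b over Cpt1a, Pnpla2 over Lipe and Ucp3 over Ucp2 lie above 4 in every mouse, whereas Hadha over Hadhb straddles 0.

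Every member varied between mice by more than counting error, and the median spread of the members was close to that of all genes with a mean of at least 200. The median CV over the 36 members was 12.7%, against 16.5% for all genes with a mean of at least 10 and 12.8% for the 8977 genes with a mean of at least 200. The variance was over 2 times the counting error in all 36, as it was in 95.5% of those 8977 genes. The steadiest members were Hadha (CV 7.97%), Acadvl (8.16%), Hadhb (8.29%), Acot13 (8.47%) and Slc25a20 (8.90%). The most variable were Ppara (45.9%), Acot2 (27.5%), Acaa2 (26.0%), Pnpla2 (22.4%) and Echs1 (19.5%). The order of the steady members also rested on single mice, since Etfa (9.28% over all 8 mice) varied less than Hadha without mouse 2. The order of the steady members depended on the scaling: with library totals the CV was 12.5% for Hadha, 15.8% for Acadvl, 14.3% for Hadhb and 16.1% for Slc25a20, and Acsl1 (8.16%), Acadm (9.39%) and Lpl (9.57%) were lower. Echs1 (28.0%) then varied more than Acaa2 (23.6%). Only Ppara, Acaa2 and Acot2 differed by over 2-fold between the highest and the lowest mouse, which is 8.33% of the members, against 10.9% of the genes with a mean of at least 200.

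**Figure D3:**
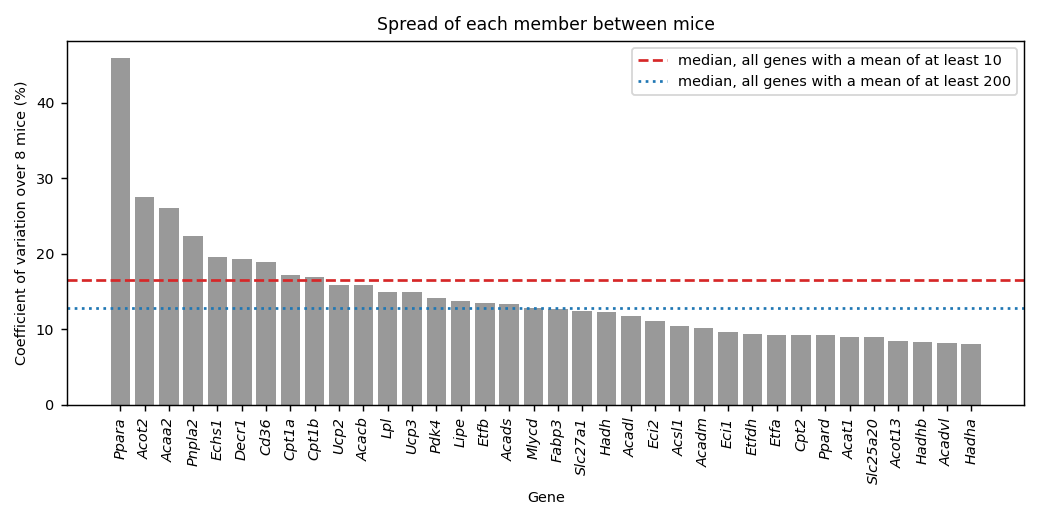
Coefficient of variation over the 8 mice for each member, in percent, from the most to the least variable, with lines at the median of all genes with a mean of at least 10 (16.5%) and of at least 200 (12.8%). Ppara stands out at 45.9%, and the subunits Hadha and Hadhb are near the low end.

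Mice differed in the members as a set. Mouse 2 had the lowest level of 16 of the 36 members, and it had the lowest level of 13.5% of all genes with a mean of at least 10. In that mouse 6 of 36 members were above their mean over the mice, and the median deviation of the members was -0.15 on the log2 scale, against 0.00 for all genes. Mouse 7 had 7 of 36 members above the mean, against 50.6% of all genes, with a median deviation of -0.090. Mouse 3 had the highest level of 10 members, against 8.92% of all genes, and 30 above the mean, against 52.2% (median deviation 0.14). Mouse 1 had the highest level of 8, against 11.5% of all genes, and 27 above the mean, against 50.6% (0.10). By role, the mean deviation in mouse 2 was below 0 throughout. It was lowest for Pdk4 (-0.38), the thioesterases (-0.27), and the acyl-CoA dehydrogenases and the flavoprotein branch (-0.26 each). It was nearest to 0 for the genes of entry (-0.05). In mouse 8 the deviation was -1.41 for Ppara and -0.23 for Ppard.

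Marker lists also differed between these mice. Macrophage genes summed to between 1746 normalized counts in mouse 7 and 4373 in mouse 4, a 2.50-fold range. Mouse 2 had the highest summed adipocyte, endothelial and fibroblast genes (6380, 6386 and 19186 normalized counts), mice 3 and 4 had the lowest fast fibre scores (mean z-scores of -1.52 and -1.21), and slow fibre scores were lowest in mice 3 (-1.10), 2 (-0.89) and 4 (-0.79). Their part in the deviations of the members was not tested beyond the fits on marker scores given further on.

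**Figure D4:**
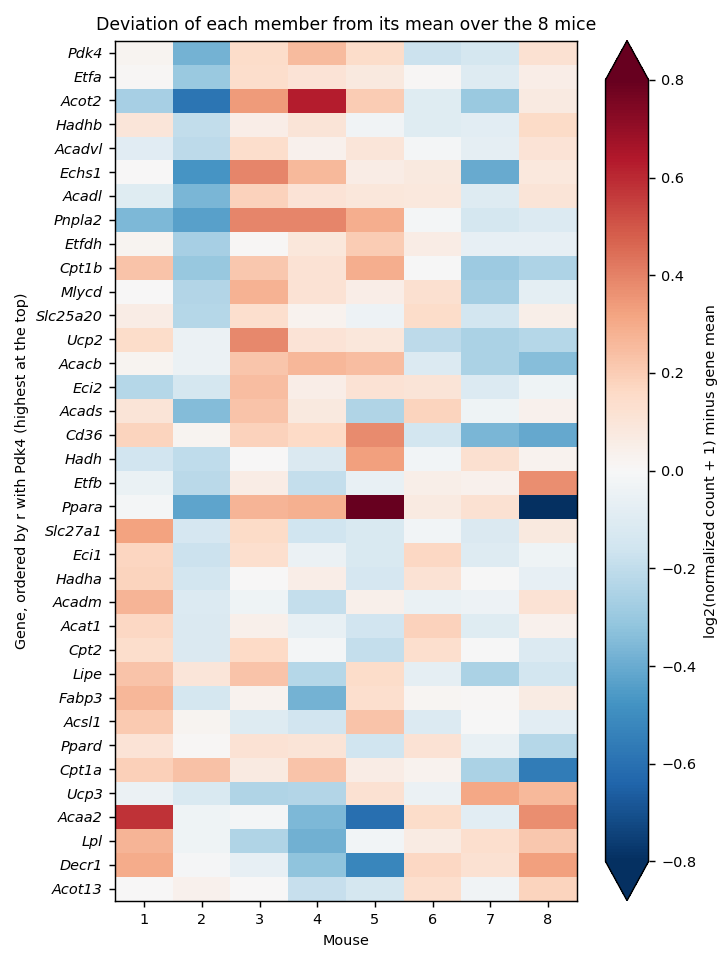
Deviation of each member in each mouse from its mean over the 8 mice, on the log2(normalized count + 1) scale, with the genes ordered by their correlation with Pdk4. The column of mouse 2 is mostly below 0 (6 of 36 members above their mean) and that of mouse 3 mostly above (30 of 36).

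Across the 8 mice, the 630 pairs of members had a median Pearson r of 0.22 on log2(normalized count + 1), and 434 pairs (68.9%) were positive. The mean r between members was 0.199, against 0.00684 between genes with a mean of at least 200. These are descriptions over the same 8 libraries, which the genes share. The closest pairs were Acadl and Etfa (r = 0.95), Acaa2 and Decr1 (0.94), Acadl and Acadvl (0.94), Mlycd and Echs1 (0.94), Cd36 and Acacb (0.93), Echs1 and Etfa (0.93), Acat1 and Eci1 (0.93), and Pnpla2 and Acot2 (0.93). The most opposed were Cpt1a and Etfb (-0.91), Cpt1a and Ucp3 (-0.80) and Ucp3 and Ppard (-0.80).

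A set of 12 relations was tested by exact permutation over all 40320 pairings of the mice. The relations were chosen with earlier results of these data known, which the adjustment over 12 pairs does not cover. Pdk4 and the thioesterase Acot2 rose and fell together: r was 0.90 (exact permutation p = 0.00268, two-sided, adjusted p = 0.0321), and Spearman's rho was 0.90 (exact permutation p = 0.00456, adjusted p = 0.0548). Without mice 2 and 6, the farthest from the median of Pdk4, r was 0.91. Leaving out each mouse in turn gave r between 0.84 and 0.95, but the adjusted p passed 0.05 in 2 of the 8 cases. It was lost without mouse 2 (0.243), 3 (0.0929), 4 (0.129), 5 (0.0881), 7 (0.0619) or 8 (0.0762). Of the 630 pairs of members, 45 had r over 0.8. In the limma fit of all genes on Pdk4, given below, Acot2 had an adjusted p of 0.293.

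None of the other 11 relations passed. Ucp3 and Ucp2 had r = -0.72 (exact permutation p = 0.0480, adjusted p = 0.288) and rho = -0.83 (exact permutation p = 0.0154, adjusted p = 0.0923). Their r was -0.40 without mice 7 and 8, and -0.37 with library totals. Pdk4 showed r = -0.12 with Ucp3, -0.11 with Cpt1a, -0.095 with Ppard and 0.21 with Ppara, with exact permutation p values of 0.783, 0.793, 0.828 and 0.621, and rho of -0.24, 0.02, -0.10 and 0.67 (0.582, 0.977, 0.840 and 0.0831). With library totals as the scaling, the r of Pdk4 with Ucp3, Cpt1a and Ppard turned positive. The partner subunits had r = 0.37 for Hadha and Hadhb (exact permutation p = 0.366; rho 0.29, p = 0.501) and r = 0.35 for Etfa and Etfb (exact permutation p = 0.363; rho 0.26, p = 0.536). With library totals these became 0.77 and 0.68. Cpt1b and Slc25a20 gave r = 0.58 (exact permutation p = 0.138; rho 0.43, p = 0.299), and Cd36 and Lpl gave r = -0.49 (exact permutation p = 0.219; rho -0.40, p = 0.327). Cd36 and Fabp3 gave 0.02 and Pnpla2 and Lipe gave -0.06 (exact permutation p = 0.969 and 0.882; rho 0.33 and -0.12, p = 0.428 and 0.793). The lowest adjusted p among the 11 was 0.288 for r. Leaving out the 2 mice farthest from the median of the gene named first moved r to -0.64 for Pdk4 and Ucp3, and turned its sign for Pdk4 and Cpt1a (0.35), Pdk4 and Ppard (0.14), Hadha and Hadhb (-0.25), Etfa and Etfb (-0.18) and Cpt1b and Slc25a20 (-0.23).

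**Figure D5:**
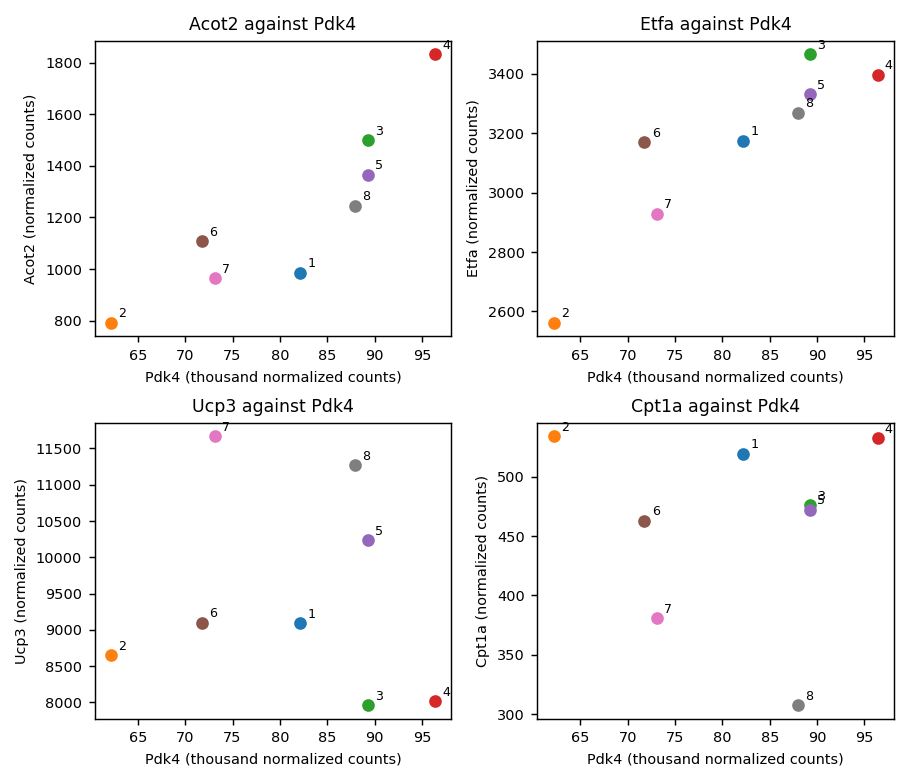
Normalized counts of Acot2, Etfa, Ucp3 and Cpt1a against those of Pdk4 (axis in units of 1000), with each point a mouse and its number beside it. Acot2 (r = 0.90) and Etfa (r = 0.91) rise with Pdk4, with mouse 2 at the low end of both, whereas Ucp3 (r = -0.12) and Cpt1a (r = -0.11) do not.

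In a limma fit of all 16512 other genes on the log2 level of Pdk4, 0 genes passed an adjusted p of 0.05 (0% of those tested), and 1455 had an unadjusted p under 0.05. The same count with edgeR's quasi-likelihood test was 0, with 1415 at an unadjusted p under 0.05. With library totals 513 genes passed, 5 members among them, the median slope of all genes moved to 0.35, and 32 of 35 members had a positive slope. Of the 35 other members, 0 passed, 25 had a positive slope (71.4%, against 50.1% of all genes), and 5 had an unadjusted p under 0.05, all with a positive slope. These were Acot2 with a log2 slope of 1.65 ± 0.32 (SE), Echs1 with 1.15 ± 0.31, Pnpla2 with 1.15 ± 0.38, Acadl with 0.69 ± 0.26 and Etfa with 0.61 ± 0.22, and their limma adjusted p ran from 0.293 to 0.486. The median slope was 0.25 over the members and 0.00 over all genes. These values moved with single mice. Without mouse 2, 18 of the 35 members had a positive slope (51.4%, against 51.5% of all genes), 2 had an unadjusted p under 0.05, and the median slope was 0.071 over the members and 0.027 over all genes. Without mouse 4, 29 of the 35 had a positive slope, with a median of 0.41, and without mice 3 and 4 the values were 29 and 0.35. The members with the highest r with Pdk4 were Etfa (0.91), Acot2 (0.90), Hadhb (0.86), Acadvl (0.83), Echs1 (0.83) and Acadl (0.81), and the lowest were Acot13 (-0.43), Decr1 (-0.36) and Lpl (-0.36). Of all genes, those with the highest r with Pdk4 over the 8 mice were Ccdc71 (0.97), Bcl2l11, a gene of cell death (0.97), and the predicted genes Gm12671 (0.97), Gm13904 (0.97) and Gm44180 (0.97).

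Members were also fitted on the marker scores for slow fibres and fat. On the slow fibre score, 1 of 16504 genes passed in limma (0.00606%), and 573 genes had an unadjusted p under 0.05. The gene that passed was the cardiac myosin gene Myh6, with a log2 slope of 0.52 ± 0.057 and a limma adjusted p of 0.0283. Another myosin gene, Myh7, is part of the score itself, which limits what the call of Myh6 can show. This call was lost with library totals and without mice 3 and 4, where 0 genes passed, and 0 genes passed in 7 of the 8 fits that left out a mouse, all but that without mouse 7. None of the 36 members passed, and Lpl (slope 0.20 ± 0.070), Fabp3 (0.15 ± 0.066) and Acadm (0.14 ± 0.055) had an unadjusted p under 0.05. With library totals, or without mouse 4, 0 members had an unadjusted p under 0.05. In a simulation of the slow fibre fit, 53.1% of genes with a slope of 0.25 were called, so slopes of this size could be missed. The simulation drew genes independently with the same fixed dispersion, so its shares may not hold for these data. On the adipocyte score, 0 of 16505 genes passed in limma (0%), 1501 had an unadjusted p under 0.05, and edgeR's quasi-likelihood test gave 0 and 1417. An unadjusted p under 0.05 was found in 3 of 36 members, no larger a share than the 1501 of 16505 genes. These members were Cd36 (slope 0.21 ± 0.091), Lipe (0.21 ± 0.060) and Cpt1a (0.20 ± 0.090), with limma adjusted p of 0.539, 0.385 and 0.547. Lipe and Cd36 are also expressed by fat cells, but whether fat cells were their source here was not tested. Without mice 3 and 4, 372 of 16504 genes passed on the adipocyte score, with 0 of the 36 members among them. That share of all genes is so small that 0 among 36 says little about the members.

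Other genes of the pathway were read from lists by role. Of 14 further uptake genes, 13 passed the filter, with a median CV of 17.8%. Got2, the aminotransferase that also acts as a plasma membrane fatty acid binding protein, was highest per kb at 1285 ± 147, followed by Fabp4 at 734 ± 107 and the caveolin Cav1 at 586 ± 108, and the acyl-CoA synthetases Acsl4 (CV 30.2%), Acsl3 (29.1%) and Acsl6 (20.1%) varied most. All 12 lipid droplet genes passed, and Plin4, a droplet coat protein, led at 3680 ± 729 per kb, above Fitm1 (939 ± 140) and Fitm2 (517 ± 63.0), which bud droplets from the endoplasmic reticulum. The inhibitors of ATGL, Hilpda (CV 45.8%) and G0s2 (29.8%), and the droplet coat gene Plin2 (24.4%) varied most. Hilpda had 21 to 74 reads and G0s2 29 to 69 reads in a library, so counting error adds to their CVs.

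All 22 further mitochondrial genes passed, with a median CV of 13.3%. Crat, carnitine acetyltransferase, was highest at 1785 ± 123 normalized counts per kb and steady between mice (CV 6.88%), ahead of Ech1 (940 ± 128), which handles unsaturated chains, and the ketone body enzyme Oxct1 (766 ± 150). Bdh1 (CV 43.2%), another ketone body enzyme, Acsf2 (30.1%, with only 34 to 86 reads in a library) and Acad12 (30.1%) varied most. Of the 16 peroxisomal genes, all passed, and Phyh (1115 ± 217) and Scp2 (872 ± 84.3) were among the highest per kb, while Abcd2 (CV 20.5%), Decr2 (19.5%) and Phyh (19.5%) varied most. The median CV of the peroxisomal list was 10.9%.

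All 21 regulators passed, with a median CV of 18.3%. Pdk2, the other main muscle pyruvate dehydrogenase kinase, had 4081 ± 347 normalized counts per kb and was steady (CV 8.51%). It was followed by Lpin1 (1453 ± 205) and the PPAR partner Rxra (638 ± 59.2). The coactivators Ppargc1a (CV 35.4%) and Ppargc1b (35.3%) and the receptor Esrrb (30.0%, with only 23 to 84 reads in a library) varied most. Of these 5 lists, no gene passed the limma fit on Pdk4, where 0 genes passed in all.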

How the data were processed

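Poly-adenylated RNA was sequenced on an Illumina NextSeq. The authors mapped reads to GRCm38 with STAR, counted them per gene with summarizeOverlaps and normalized them with DESeq2, and per the labels fastp and FastQC were also used. The annotation release, the use of strand and the treatment of reads shared by several genes are not given in the sources used here. The signal in the deposited table is a count scaled by 1 size factor per library (0.906 to 1.20), since 100% of nonzero values were whole multiples of the value of 1 read, within 0.01 of a read. Although raw counts had been assumed, these normalized counts were used as deposited, and the recovered whole reads were used for edgeR, TMM factors and library totals. All 28 pairs of libraries differed by more than sampling noise. Replicates are separate samples in the labels, and p-values measure the spread between them.

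GENCODE release M21 (GRCm38) gave symbols, coordinates and exon lengths for 55227 of the 55487 identifiers. Members, gene lists and tests were chosen with earlier results of these data known. All 36 members were named, with the 3 highest levels and the 3 highest CVs of each pathway list of at least 10 measured genes, every gene of the fasting or glucocorticoid list, and the 5 genes closest to Pdk4, except for genes whose single values are not reported here. Log values are log2(normalized count + 1), on which fold changes of low genes are understated. Marker scores are mean z-scores, and genes with a mean of at least 10 entered limma (trend), adjusted by Benjamini-Hochberg over all genes. Level pairs and relations were adjusted over 12 pairs each. Alternatives were TMM factors, library totals, a pseudocount of 5, no filter, edgeR, the longest transcript, the median, and leaving out each mouse. Omitting mice 3 and 4, which had the lowest fast fibre sums, was chosen after seeing the data. The slow fibre fit was checked by simulation with slopes planted in 200 of 16513 genes. Counts were drawn independently for each gene, with the same fixed dispersion and a score scaled to unit SD. Of 96 genes with a slope of 0.25, 53.1% were called, and of 104 with a slope of 0.5, 91.3% were called. These settings differ from the data, so the shares may not hold for the real fit. Counts carry no molecular identifiers. R 4.3.3, limma 3.58.1, edgeR 4.0.16, Python 3.11.15, numpy 2.4.6, scipy 1.17.1 and pandas 2.3.3 were used.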

Additional observations from a re-analysis of the deposited data

Results flagged for a closer look

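Of 54 sets of 8 values examined for a mouse that stood apart, 2 had a gap to the nearest mouse larger than Dixon's 95% limit as a share of the whole range, and chance alone would give about 2.7. The normalized count of Etfb was 3091 in mouse 8 and 2050 to 2488 in the other mice, a gap of 0.5793 of the range, and with TMM factors the gap was 0.545. The log2 ratio of Eci1 to Eci2 was 0.94 in mouse 1 and 0.30 to 0.60 in the others, a gap of 0.5349 of the range. The gap of Ppara, high in mouse 5 and low in mouse 8, was 0.523 and under the limit.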

How the results depend on the processing

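No paired analysis was possible because the 8 libraries form 1 condition, so no groups share replicate numbers. The median level of the members was 684 normalized counts per kb over all exons and 1023 over the longest transcript. On Pdk4, 1 gene passed with TMM factors, 2 without the filter, 513 with library totals (482 with a positive slope, 5 members among them) and 0 to 6 when a mouse was left out (6 without mouse 1 and 1 without mouse 6). With library totals the median slope of all genes moved from 0.00 to 0.35. On the slow fibre score, 0 genes passed with library totals, 0 without mice 3 and 4, and 0 to 3 when a mouse was left out (3 without mouse 7, 0 without any other). On the adipocyte score, 1 passed with library totals, 4 without the filter, 372 without mice 3 and 4, and 0 to 37 when a mouse was left out (37 without mouse 4 and 2 without mouse 3). Of the 12 relations, 1 passed in the fit reported, 0 to 1 when a mouse was left out, and 0 without mice 3 and 4, where Pdk4 and Acot2 had r = 0.87. With library totals, r turned positive for Pdk4 and Ucp3 (0.19), Pdk4 and Cpt1a (0.33), Pdk4 and Ppard (0.54) and Pnpla2 and Lipe (0.46), and without mice 3 and 4 for Pdk4 and Ucp3 (0.49). Leaving out a mouse gave r from -0.42 to 0.13 for Pdk4 and Ucp3, -0.33 to 0.21 for Pdk4 and Cpt1a, -0.29 to 0.089 for Pdk4 and Ppard, -0.12 to 0.55 for Etfa and Etfb, -0.17 to 0.35 for Cd36 and Fabp3, and -0.36 to 0.21 for Pnpla2 and Lipe. It gave 0.055 to 0.69 for Pdk4 and Ppara and 0.027 to 0.57 for Hadha and Hadhb. The cause of these changes was not tested. The 12 level ratios kept their direction under every alternative run, and Hadha to Hadhb also passed without mouse 8 (0.12). With library totals, 14 of 36 CVs moved by over 1.5 times. By the same measure, 6 CVs moved over all fits that left out a mouse. Depth did not limit the members, which all had at least 74 reads in every library.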

Other observations

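Genes known to rise in fasting or with glucocorticoids were read beside Pdk4, itself known to rise in both states. All 16 passed the filter, and their levels were high for the ubiquitin ligases Trim63 (15442 ± 3818 normalized counts per kb, SD, n = 8) and Fbxo32 (9019 ± 1892) and for Txnip (5553 ± 1120), an inhibitor of glucose uptake. Mt2 (CV 47.6%), Mt1 (41.2%) and Sesn1 (40.2%) varied most between mice. Across the 8 mice, 15 of the 16 had a positive r with Pdk4, with a median of 0.71, against 25 of 35 members (median 0.24) and a median of 0.00 over all genes. The highest r were those of the stress gene Sesn1 (0.94), Zbtb16 (0.86), Klf15 (0.83), the growth inhibitor Cdkn1a (0.83) and Cebpd (0.81). They were followed by Txnip (0.79), the growth inhibitor Ddit4 (0.74), Trim63 (0.72) and Fkbp5 (0.71). Mt1 (0.60), Angptl4 (0.54), Mt2 (0.50), Per1 (0.44), Fbxo32 (0.39) and Foxo1 (0.39) were lower. None of the 16 passed in limma over all genes. Sesn1 came nearest, with a slope of 2.82 ± 0.36 (SE) and a limma adjusted p of 0.0799, between 726 normalized counts in mouse 2 and 2183 in mouse 3. These correlations share the 8 libraries and are given as a description. Mouse 2, which had the lowest Pdk4, was also the lowest for 9 of the 16, against 13.5% of all genes. Leaving out each mouse in turn, which was added after seeing the data, gave 14 to 16 genes with a positive r and a median r of 0.60 (without mouse 2) to 0.74, and without mice 3 and 4 the median was 0.59. Over the members the median r was 0.063 without mouse 2 and 0.45 without mouse 4.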
